A study of Mus musculus with 4 samples.

Results

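The T cells described here carried Ifng transcripts and were limited by rule to a low count of granzyme B transcripts. They were found among UTCαβ, the αβ T cells with neither CD4 nor CD8, sorted from sarcomas that the carcinogen 3-methylcholanthrene (3-MCA) had induced under the skin of mice. A cell was called an Ifng producer when it held at least 2 unique molecular identifiers (UMIs, each standing for 1 captured transcript) of Ifng, fewer than 5 of Gzmb and at least 1 of Cd3e, in a barcode with 200 genes or more, no more than 20000 UMIs in all and no more than 10% of them mitochondrial. By this rule 1237 cells were producers, out of 21342 barcodes past the filters and 32525 barcodes deposited. They were compared with the 16152 Ifng-negative cells, which passed the same filters and had 0 Ifng UMIs and fewer than 5 Gzmb UMIs.

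Tumors came from Csf3r+/+ mice and from Csf3r-/- mice, all male, on a C57BL/6J background and given 3-MCA. Ages at tumor collection are not given in the sources used here. Csf3r encodes the receptor for G-CSF, and mice that lack it from the germline onward are short of neutrophils, so the deletion was in every cell of the mouse and not in the T cells alone. The question behind the comparison was whether neutrophils bear on the type 1 state and IFNγ production of UTCαβ. Each genotype had 2 libraries of 3′ transcript ends, and the sort kept TCRβ+ leukocytes that stained for none of CD11b, TCRγδ, CD4 and CD8. Csf3r itself is not a T cell gene and checks no label here: producers held 0, 0, 1 and 1 of its UMIs in Csf3r+/+ libraries 1 and 2 and Csf3r-/- libraries 1 and 2.

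Interferon gamma is the signature cytokine of type 1 immunity, which activates macrophages and raises antigen presentation. T cells make it after stimulation of the antigen receptor or in response to IL-12 and IL-18, under the transcription factor T-bet, which Tbx21 encodes. The type 3 program, marked by IL-17A, is the other main state of unconventional T cells in tissues. Granzyme B is a protease that killer lymphocytes deliver to target cells, and lymphocytes can make interferon gamma with or without it.

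Producers were found in all libraries, and they were more frequent in both Csf3r+/+ libraries. Csf3r+/+ libraries 1 and 2 held 180 and 799 producers, and Csf3r-/- libraries 1 and 2 held 99 and 159. Libraries are numbered by the suffix of the barcode, which the labels do not tie to an animal. Among cells with fewer than 5 Gzmb UMIs, producers made up 8.22% (exact 95% interval 7.10% to 9.45%) and 15.8% (14.8% to 16.8%) in the Csf3r+/+ libraries. In the Csf3r-/- libraries they made up 2.01% (1.64% to 2.44%) and 2.47% (2.1% to 2.87%). The intervals, like the limits given for counts of 0, cover counting error only, and they show the 2 Csf3r+/+ libraries to be further apart from each other than the 2 Csf3r-/- libraries were.

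Csf3r+/+ libraries averaged 12.0% ± 5.33 (SD, n = 2). The average of the Csf3r-/- libraries was 2.24% ± 0.323 (SD, n = 2), a difference of -9.75 percentage points. The groups did not overlap, but an exact two-sided permutation test over 2 against 2 libraries gave p = 0.333, the smallest value that this design allows. Cells of the Csf3r-/- libraries were shallower, with a median of 2181 and 1935 UMIs in Ifng-negative cells against 2882 and 2977. When every cell was thinned to 1500 UMIs, the shares were 4.03% and 8.35% in Csf3r+/+ and 0.888% and 1.58% in Csf3r-/-, with 54, 126, 538 and 955 shallower cells left out, in the order of the libraries above. Barcodes with 0 Cd3e UMIs and at least 10 UMIs of macrophage or B cell markers, which should not express Ifng, held 2 or more Ifng UMIs in 0 of 30, 7 of 138, 1 of 138 and 0 of 126 cases. For Csf3r+/+ library 2 this background was 5.07% at a median of 3713 UMIs, against 15.8% of T cells, and for Csf3r-/- library 1 it was 0.725% at a median of 1484 UMIs. In Csf3r+/+ library 1 and Csf3r-/- library 2, where it was 0, the medians were 4919 and 5271.5 UMIs. These barcodes were thus deeper than Ifng-negative cells in all libraries but Csf3r-/- library 1. The exact 95% intervals of the 4 backgrounds reach up to 11.6%, 10.2%, 3.97% and 2.89%, so that in all but Csf3r+/+ library 2 they include the share of producers among T cells.

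**Figure D1:**
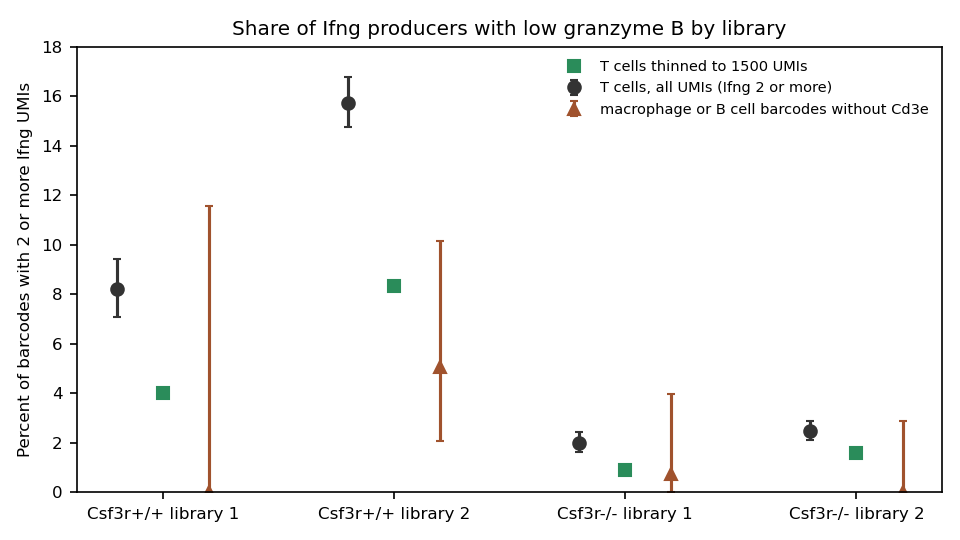
Percent of barcodes with 2 or more Ifng UMIs in each of the 4 libraries: black circles for T cells with fewer than 5 Gzmb UMIs (bars, exact 95% intervals), green squares for the same after each cell was thinned to 1500 UMIs, and brown triangles for macrophage or B cell barcodes without Cd3e (bars, exact 95% intervals). The Csf3r+/+ libraries lie at 8.22% and 15.8% and the Csf3r-/- libraries at 2.01% and 2.47%.

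The 3 genes of the rule are given as a description. Ifng, at chr10:118441046-118445892 (GRCm38), had a median of 3, 3, 2 and 3 UMIs per producer in the 4 libraries, with the highest cell at 23, 39, 7 and 29. Cells just inside the rule, with exactly 2 Ifng UMIs, numbered 63, 284, 67 and 69, and cells just outside it, with 1 Ifng UMI, numbered 117, 670, 194 and 269. Producers with 10 or more Ifng UMIs numbered 13, 78, 0 and 15, so that Csf3r-/- library 1 had none. Gzmb was at 0 in 47.8%, 45.7%, 52.5% and 55.3% of producers, 18, 73, 8 and 15 of them stood at 4 Gzmb UMIs, and 23, 44, 5 and 11 cells with 2 or more Ifng UMIs stood just outside at 5. Producers with low Gzmb held 43.3%, 53.9%, 36.9% and 55.8% of all Ifng UMIs of the libraries' cells, and among the 653, 1385, 287 and 378 cells with 5 or more Gzmb UMIs, 23.7%, 32.4%, 18.8% and 14.0% had 2 or more of Ifng.

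The libraries did not look alike before any comparison. In Csf3r+/+ library 2 the Ifng-negative cells already carried much of what marks the producers, and cells with a UMI of any of the 11 Klra genes (the Ly49 receptors of NK cells) made up 71.9% of its cells with low Gzmb, against 31.9% in Csf3r+/+ library 1 and 15.6% and 17.3% in the Csf3r-/- libraries. Between 20 and 56 barcodes were shared by any 2 libraries, at most 1.02% of the smaller one. Doublets were not removed.

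Producers differed from Ifng-negative cells of the same libraries in 268 genes, with 148 higher and 120 lower. This was tested on UMI counts summed per library and class, with the library as a block, by the quasi-likelihood F test of edgeR, adjusted after Benjamini and Hochberg over the 9847 genes tested, of which 2.72% were called, 1.5% as higher and 1.22% as lower. Levels below are CPM, the UMIs of a gene scaled to 1000000 UMIs of the class, which for 3′ counts are not divided by gene length, and changes are fitted log2 differences with their standard errors. In such sums, fewer cells that express a gene and less RNA per cell cannot be told apart. By the methods each genotype was represented by 2 mice, as many as its libraries, and p-values measure the spread between these libraries. Ifng, Gzmb and Cd3e were left out of the tests. The filter on low counts lay at 2.17 CPM, and 5 of the 148 and 31 of the 120 were below it in at least 1 of the sums.

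Both markers of the type 1 state that the rule did not use were higher in producers. Tbx21, the T-bet gene at chr11:97098071-97115331, stood at 56.1 and 69.6 CPM in producers of the Csf3r+/+ libraries and at 57.1 and 64.6 CPM in those of the Csf3r-/- libraries. In Ifng-negative cells it stood at 21.4 and 43.6, and at 10.3 and 10.1 CPM. Every library had more Tbx21 in producers than in any library's Ifng-negative cells (log2 difference 1.62 ± 0.30, 3.08-fold, edgeR adjusted p = 0.0135), and the 4 producer values lay within a narrow range. Cxcr3, the chemokine receptor that draws type 1 T cells to inflamed tissue (chrX:101731535-101734269), stood at 340, 197, 250 and 159 CPM in producers and at 132, 162, 73.0 and 46.3 CPM in Ifng-negative cells. It was higher in producers of all 4 libraries, least so in Csf3r+/+ library 2 (1.31 ± 0.22, 2.47-fold, edgeR adjusted p = 0.00833).

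Of the 14 tested genes of a list for the type 1 program, 6 rose, none fell and the median log2 difference was 0.52, beside -0.01 over all genes tested. Besides Tbx21 and Cxcr3, these were Ccl5, a chemokine of memory and killer lymphocytes (1.53 ± 0.24), Ctsw, a protease of killer lymphocytes (1.23 ± 0.21), the T cell kinase gene Txk (0.82 ± 0.15) and Irf1, a transcription factor of the interferon response (0.70 ± 0.12). The highest of their adjusted p-values in edgeR was 0.0135. Eomes, the T-bet relative of killer cells, stood at 22.7, 46.5, 12.0 and 18.4 CPM in producers and 7.95, 40.9, 11.6 and 7.36 CPM in Ifng-negative cells and was not called (0.66 ± 0.27, edgeR adjusted p = 0.298). Stat4, which carries the IL-12 signal, was not called either (0.38 ± 0.15, edgeR adjusted p = 0.288).

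Of 16 genes that sense IL-12, IL-18 and IL-15, 2 rose and none fell. Il12rb2, the inducible chain of the IL-12 receptor (chr6:67291318-67376188), stood at 12.1, 38.9, 21.0 and 38.7 CPM in producers against 4.80, 25.9, 4.39 and 5.98 CPM in Ifng-negative cells (1.47 ± 0.35, edgeR adjusted p = 0.0462). It was low everywhere, and again nearest between classes in Csf3r+/+ library 2. Il2rb, the shared chain of the IL-2 and IL-15 receptors, rose by 0.81 ± 0.16 (edgeR adjusted p = 0.0218). Il18r1, the IL-18 receptor, had a difference of -0.51 ± 0.15 and was not called (edgeR adjusted p = 0.129).

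Receptors of NK cells were the list with the most genes higher in producers, 14 of 19 tested with none lower and a median of 1.31. Klra9, one of the Ly49 receptors for MHC class I (chr6:130178675-130193112), had the largest rise by the rule for naming genes. It stood at 265, 240, 219 and 301 CPM in producers and at 48.5, 152, 21.4 and 43.1 CPM in Ifng-negative cells. Its producer values were close to each other in all libraries, above all Ifng-negative values (2.29 ± 0.33, 4.89-fold, edgeR adjusted p = 0.00576). Klra genes are near-identical copies, and their UMIs may be split or swapped among them, so the single members are uncertain.

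The other genes of that list span activating and inhibiting receptors. Klrb1c, which encodes NK1.1 on C57BL/6 cells, stood at 349, 245, 195 and 116 CPM in producers against 94.6, 186, 36.2 and 30.8 CPM (1.63 ± 0.26). The activating receptor Ncr1 (NKp46) rose by 1.66 ± 0.30, the inhibitory pair Klrd1 and Klrc1 (CD94 and NKG2A) by 1.31 ± 0.24 and 1.38 ± 0.22, and Klrk1 (NKG2D) by 1.06 ± 0.17. The signaling adaptors Tyrobp and Fcer1g rose by 1.59 ± 0.26 and 1.36 ± 0.25, whereas Hcst, the adaptor of NKG2D, was not called (0.15 ± 0.10, edgeR adjusted p = 0.63). The members named here as higher had an edgeR adjusted p of at most 0.0142. Of 5 NK cell markers tested, 3 rose and none fell, all of them also on the receptor list. Producers also carried T cell signaling genes, at sums somewhat below those of Ifng-negative cells in each library and furthest below in Csf3r-/- library 2. Cd3d, Cd3g, Cd247, Lck and Lat, which other T cells and in part NK cells also express, summed to 4766, 3451, 4765 and 3665 CPM in producers against 4995, 3557, 5340 and 5106 CPM, and only Lat, the adaptor below the antigen receptor, was called, as lower (-0.63 ± 0.15, edgeR adjusted p = 0.0439). The constant genes of the αβ receptor, Trac, Trbc1 and Trbc2, are absent under these symbols from the deposited matrices and could not be counted.

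**Figure D2:**
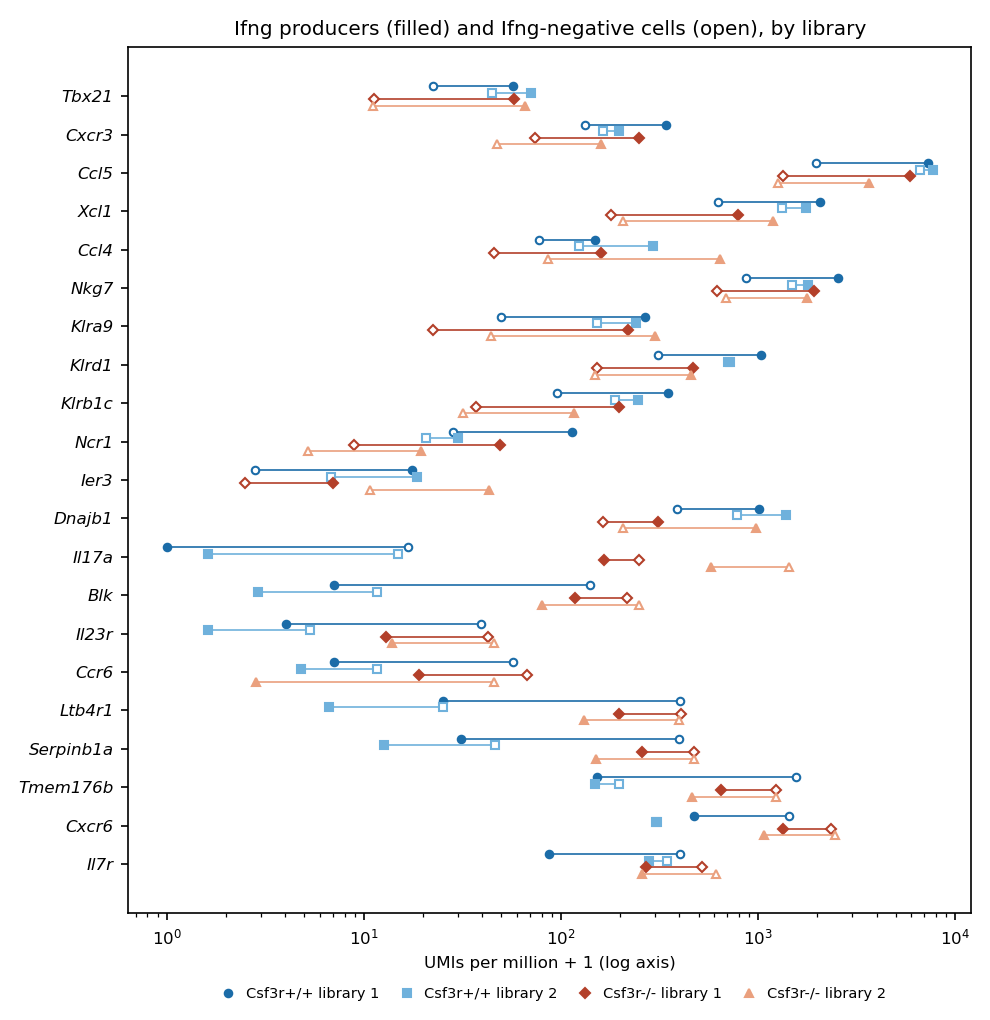
Levels of 21 named genes as CPM + 1 on a log axis, with filled symbols for Ifng producers and open symbols for Ifng-negative cells of the same library, 4 libraries per gene (blue circles and squares, Csf3r+/+; red diamonds and orange triangles, Csf3r-/-). Producers lie to the right for type 1 and NK receptor genes and to the left for type 3 genes, and the lines of Csf3r+/+ library 2 are mostly the shortest.

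Chemokines and a death ligand were higher in producers, and the other inflammatory cytokines were not called. Of 17 tested cytokines, chemokines and TNF ligands, 4 rose and none fell. Xcl1, which attracts cross-presenting dendritic cells (chr1:164931644-164935527), stood at 2060, 1753, 791 and 1188 CPM in producers and at 629, 1325, 178 and 205 CPM in Ifng-negative cells. It was higher in producers of every library, and in the Csf3r-/- libraries the producers remained below the Ifng-negative cells of Csf3r+/+ library 2 (1.77 ± 0.26, 3.41-fold, edgeR adjusted p = 0.00621). The inflammatory chemokines Ccl4 and Ccl3 rose by 1.83 ± 0.25 and 1.53 ± 0.18, and Fasl, which kills through the receptor Fas, by 1.58 ± 0.27. Tnf stood at 48.5, 53.8, 24.0 and 35.0 CPM in producers against 46.5, 39.8, 33.1 and 31.8 CPM (0.24 ± 0.16, edgeR adjusted p = 0.632), and Il2 was not called (0.95 ± 0.26, edgeR adjusted p = 0.0824).

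Of 11 tested granule genes other than Gzmb, 4 rose and none fell. Nkg7, a membrane protein of cytotoxic granules, stood at 2559, 1795, 1930 and 1769 CPM in producers against 866, 1498, 619 and 688 CPM (1.28 ± 0.19, edgeR adjusted p = 0.00608). Gzma, granzyme A, was 7.58, 26.2, 12.0 and 101 CPM against 3.64, 14.8, 6.55 and 9.33 CPM, with the largest gap in Csf3r-/- library 2 (1.85 ± 0.43, edgeR adjusted p = 0.0405). Serpinb9 and Serpinb6b, inhibitors of granzymes, rose by 1.09 ± 0.26 and 0.78 ± 0.17. Prf1, the pore-forming perforin, stayed between 7.38 and 18 CPM in producers and was not called (edgeR adjusted p = 0.225).

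Genes that follow stimulation leaned upward as a list, with all 20 tested genes of antigen receptor stimulation above 0, 8 of them called higher and a median of 0.54. Among the called were the immediate early genes Fos (0.73 ± 0.11) and Jun (0.70 ± 0.12), the phosphatase Dusp2 (1.33 ± 0.23), the growth regulator Myc (1.24 ± 0.29) and the early activation marker Cd69 (0.55 ± 0.11). Nr4a1, which reports antigen receptor signals, was not called (0.53 ± 0.16, edgeR adjusted p = 0.111). Ier3, another early response gene, was named by the rule, at 16.7, 17.7, 6.01 and 42.4 CPM in producers against 1.82, 5.85, 1.49 and 9.77 CPM (2.13 ± 0.30, edgeR adjusted p = 0.0054). In Ifng-negative cells of library 1 of each genotype it was below the filter level, which it reached in all libraries only in producers.

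Heat shock genes moved with it, 7 of 10 higher, none lower and all 10 above 0. The co-chaperone Dnajb1 stood at 1017, 1394, 310 and 983 CPM in producers against 388, 780, 163 and 206 CPM (1.43 ± 0.20, edgeR adjusted p = 0.0046), and Hspa1a, which shares reads with its near-identical copy Hspa1b, rose by 1.15 ± 0.20.

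Of the costimulatory receptors, 3 of 10 rose, with Cd28 at 194, 295, 289 and 404 CPM in producers against 78.2, 202, 103 and 184 CPM (1.16 ± 0.15, edgeR adjusted p = 0.00429). Among checkpoints and cytokine brakes, the feedback inhibitor Socs3 rose by 1.01 ± 0.20 and the inhibitory receptor Pdcd1 fell (-0.94 ± 0.21, edgeR adjusted p = 0.036), although Pdcd1 was nearly equal in Csf3r+/+ library 1, at 31.8 against 32.5 CPM. The quiescence and homing regulator Klf2 (1.22 ± 0.17), the survival gene Bcl2 (0.72 ± 0.16) and the chromatin organizer Satb1 (0.76 ± 0.16) rose, and Il7r, the receptor for the survival cytokine IL-7, fell (-1.03 ± 0.21, edgeR adjusted p = 0.0218). Il4, the type 2 cytokine, was counted at 6.06, 19.6, 0 and 14.8 CPM in producers against 1.66, 6.72, 0.332 and 0.729 CPM and was called (2.16 ± 0.50, edgeR adjusted p = 0.0398), with no UMI in producers of Csf3r-/- library 1. In Ifng-negative cells Il4 was below the filter level in Csf3r+/+ library 1 and in both Csf3r-/- libraries, so its test rested mainly on the producers. Of the other 2 type 2 genes tested, Il17rb, a receptor for IL-25, fell (-1.89 ± 0.42, edgeR adjusted p = 0.0327) but was below the filter level of 2.17 CPM in producers of both Csf3r+/+ libraries, at 1.52 and 0.632 CPM, and Gata3 stood at 77.3, 77.2, 93.2 and 97.8 CPM in producers and was not called.

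Some programs gave no call or few calls. None of 16 genes induced by interferon gamma passed in either direction (median 0.09), nor did any of 13 glycolysis genes (median -0.13) or 10 proliferation genes (median 0.28). All 12 genes of the type I interferon response were above 0 (median 0.39), and of these Isg15 and Usp18 were called higher (0.48 ± 0.11 and 0.64 ± 0.12, edgeR adjusted p = 0.04 and 0.0147). In each of these lists the count of calls has to be read against the 2.72% called over all genes.

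**Figure D3:**
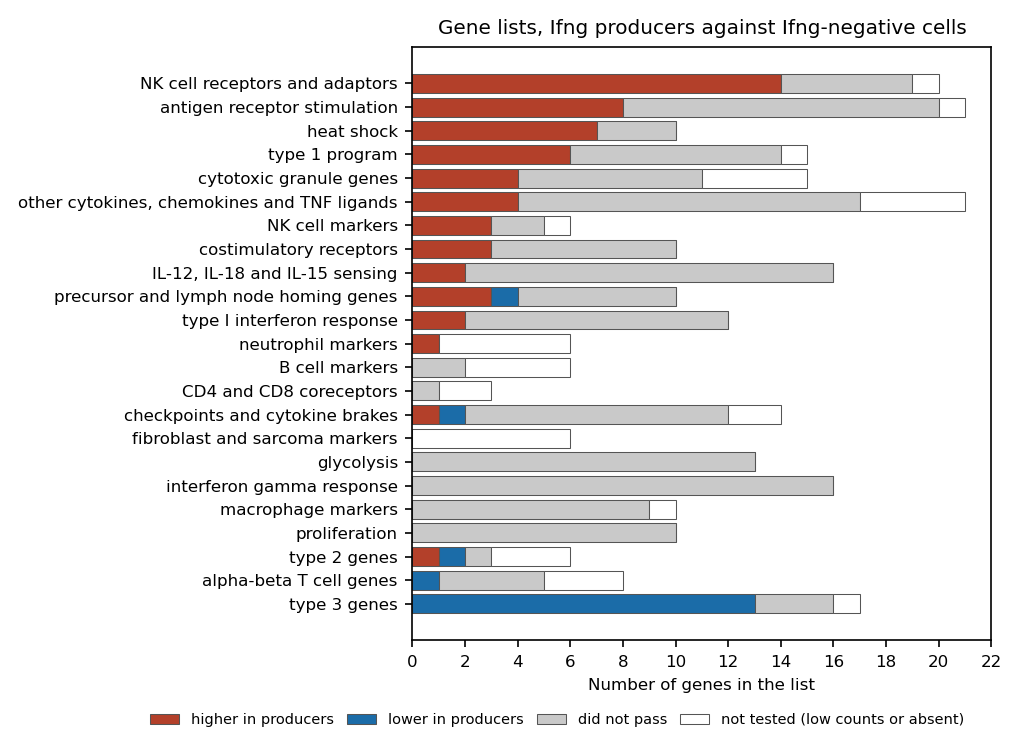
Number of genes in each of the 23 lists that were higher (red), lower (blue), tested but not called (gray) or not tested (white) in Ifng producers against Ifng-negative cells, at an edgeR adjusted p under 0.05. NK cell receptors lead the higher side with 14 of 19 tested, and type 3 genes lead the lower side with 13 of 16 tested.

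Of 16 tested genes of the type 3 program, 13 were called lower in producers and none higher. The level of the filter on low counts, 2.17 CPM, was reached by 6 of the 16 (Blk, Ccr6, Il23r, Il1r1, Il17a and Il22) in all Ifng-negative sums but not in all producer sums, and of the 10 that reached it in all sums of both classes 8 were called lower. The kinase gene Blk (chr14:63372836-63417037) stood at 6.06 and 1.90 CPM in producers of the Csf3r+/+ libraries and at 117 and 79.3 CPM in those of the Csf3r-/- libraries. In Ifng-negative cells it stood at 139 and 10.7, and at 216 and 248 CPM. It was lower in producers within every library, but producers of the Csf3r-/- libraries were above the Ifng-negative cells of Csf3r+/+ library 2 (-1.82 ± 0.32, 3.54-fold lower, edgeR adjusted p = 0.01).

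Receptors of this program fell by unequal amounts. Ccr6, the chemokine receptor of IL-17-producing cells, stood at 6.06, 3.79, 18 and 1.84 CPM in producers against 56.3, 10.7, 66.7 and 44.8 CPM (-2.30 ± 0.31, edgeR adjusted p = 0.00429), and Il23r, the IL-23 receptor, at 3.03, 0.632, 12.0 and 12.9 CPM against 38.6, 4.35, 41.5 and 44.6 CPM (-2.27 ± 0.31, edgeR adjusted p = 0.00429). Il1r1 (-1.68 ± 0.33), the leukotriene receptor Ltb4r1 (-1.94 ± 0.31) and the protease inhibitor Serpinb1a (-1.82 ± 0.28) fell as well, and the chemokine receptor Cxcr6 (-0.81 ± 0.18) and the costimulatory receptor Icos (-1.04 ± 0.23) fell less. Tmem176b, an ion channel gene that overlaps Tmem176a, stood at 152, 148, 649 and 465 CPM against 1558, 197, 1240 and 1234 CPM (-1.38 ± 0.32, edgeR adjusted p = 0.0408). Il17a (chr1:20730905-20734496) stood at 0, 0.632, 165 and 579 CPM in producers and 15.7, 14.0, 249 and 1443 CPM in Ifng-negative cells (-1.36 ± 0.32, edgeR adjusted p = 0.0411). Maf and Zbtb16, a transcription factor of IL-17-producing cells and the PLZF gene of innate-like T cells, were not called (-0.96 ± 0.31 and -0.91 ± 0.25, edgeR adjusted p = 0.155 and 0.0873).

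Outside the lists, the genes that fell most by the naming rule included Pxdc1, at 37.9, 18, 66.1 and 60.9 CPM in producers against 404, 78.3, 221 and 219 CPM (-2.22 ± 0.21, edgeR adjusted p = 0.00124), the growth factor receptor Igf1r (-2.27 ± 0.29), the leukotriene receptor Cysltr1 (-2.08 ± 0.31) and the transcription cofactor Lmo4 (-1.98 ± 0.24). Igf1r was below the filter level in producers of both Csf3r+/+ libraries, at 1.52 and 1.26 CPM, and reached it in all libraries only in Ifng-negative cells. After Ier3, the largest rises outside the lists were Klri2, another NK receptor (1.99 ± 0.47), the potassium channel Kcnj8 (1.70 ± 0.35) and Ifitm10 (1.64 ± 0.35). The same sign in all 4 libraries was a condition of the naming rule for each of these.

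The class comparison leaned on its pairing and on its libraries. Of the 77 called genes chosen to follow across settings, none kept an edgeR adjusted p under 0.05 without the library block, 23 did without Csf3r-/- library 1 and 49 without Csf3r-/- library 2, with no reversal of sign. Without Csf3r-/- library 1 the type 1, NK receptor and granule lists had 0 called genes and the type 3 list 6. When Ifng-negative cells were drawn to match the producers' UMIs per cell, 44 of the 72 that could be tested passed, with 6 of 14 in the type 1 list, 9 of 17 in the NK receptor list and 8 of 13 in the type 3 list.

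Levels by the number of Ifng UMIs in a cell add the cells with 1 Ifng UMI, which belong to neither class. Tbx21 stood at 21.4, 43.6, 10.3 and 10.1 CPM in cells with 0 Ifng UMIs, at 83.7, 60.5, 59.0 and 34.1 CPM in those with 1 UMI and at 58.4, 73.8, 53.8 and 62.4 CPM in those with 2. From 1 to 2 UMIs it was thus higher in library 2 of each genotype, most of all in Csf3r-/-, and lower in library 1 of each. Tmem176b in Csf3r+/+ library 1 stood at 1558, 311, 188, 167 and 101 CPM at 0, 1, 2, 3 to 4 and 5 to 9 Ifng UMIs, and in Csf3r-/- library 2 at 1234, 846, 575, 483 and 275 CPM. In Csf3r-/- library 1 it stood at 1240, 763, 682, 690 and 362 CPM in the same groups, the last of them with 10 cells. At 10 or more Ifng UMIs it stood at 76.9 CPM in Csf3r+/+ library 1 and at 244 CPM in Csf3r-/- library 2. Csf3r+/+ library 2 was low throughout, at 197, 131, 113, 172 and 151 CPM, and back at 191 CPM at 10 or more. Cxcr6, a chemokine receptor of tissue-resident T cells, stood in the same 5 groups at 1430, 567, 467, 467 and 475 CPM in Csf3r+/+ library 1, but at 304, 253, 241, 305 and 339 CPM in Csf3r+/+ library 2. Xcl1 in Csf3r-/- library 2 stood at 205, 433, 834, 1594 and 1110 CPM, highest at 3 to 4 Ifng UMIs, whereas Csf3r+/+ library 2 went from 1325 CPM to 1741, 1762, 1737 and 1670 CPM, with little change from 1 to 9 UMIs. At 10 or more Ifng UMIs Xcl1 stood at 1506.5 CPM in Csf3r-/- library 2 and at 2002 CPM in Csf3r+/+ library 2, the highest of its groups there.

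**Figure D4:**
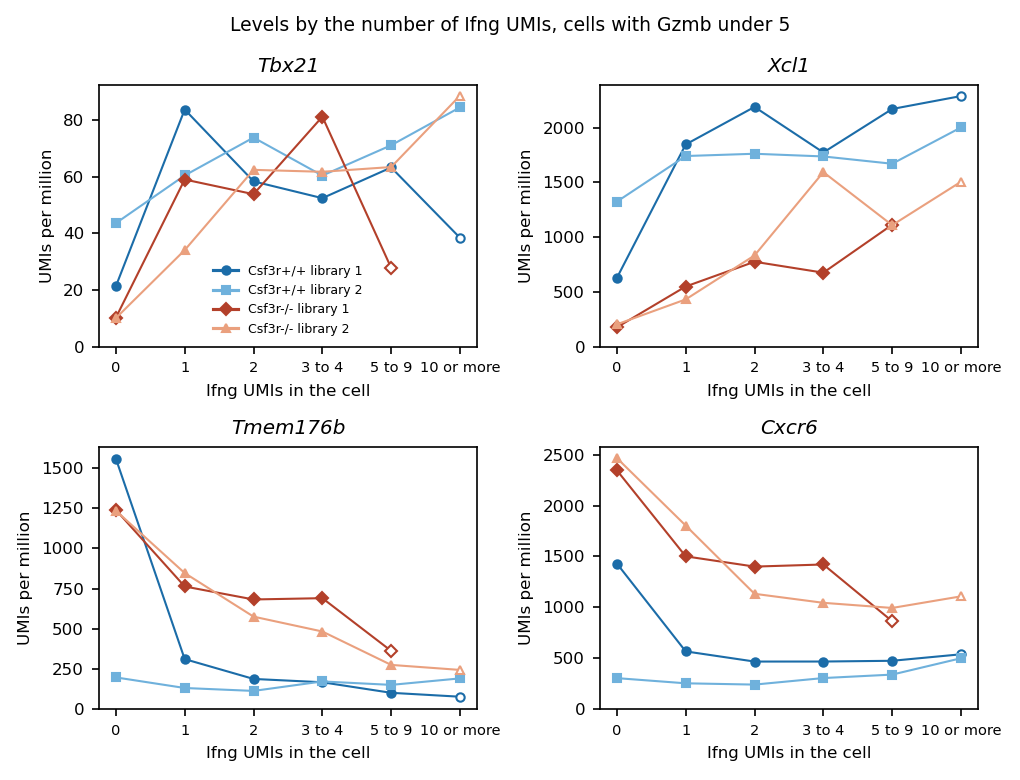
CPM of Tbx21, Xcl1, Tmem176b and Cxcr6 (vertical axes) in cells with fewer than 5 Gzmb UMIs, grouped by their number of Ifng UMIs (horizontal axes), 1 line per library, with open symbols for groups under 20 cells. Tbx21 in cells with 1 Ifng UMI stands at 34.1 to 83.7 CPM, against 10.1 to 43.6 CPM at 0, and Tmem176b and Cxcr6 are lower at 1 than at 0 in all 4 libraries.

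At an equal depth of 1500 UMIs, a UMI of any Klra gene was found in 73.7%, 63.4%, 59.6% and 49.7% of producers, against 21.7%, 60.2%, 11.6% and 13.7% of Ifng-negative cells, and in 16.0%, 23.6%, 10.3% and 16.2% of macrophage or B cell barcodes. Without thinning, the shares in the same cells, those with 1500 UMIs or more, were 82.7%, 76.3%, 62.8% and 64.5% of producers and 24.7%, 70.9%, 14.6% and 16.7% of Ifng-negative cells. Ifng-negative cells of the Csf3r-/- libraries were thus near the background for Klra, and those of Csf3r+/+ library 2 close to their producers. At that depth a UMI of Tbx21 was found in 8.94%, 9.38%, 8.51% and 9.03% of thinned producers, 3.20%, 6.55%, 1.41% and 1.22% of Ifng-negative cells and 0%, 1.57%, 0% and 0.855% of background barcodes. The counts of 0 in 25 and 68 background barcodes allow shares of up to 12% and 4.41%. Without thinning the Tbx21 shares in the same cells were 17.9%, 21.7%, 14.9% and 17.4% of producers, 6.13%, 13.2%, 2.63% and 2.16% of Ifng-negative cells and 4%, 7.09%, 0% and 3.42% of background barcodes.

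The frequency of producers was followed within cells split by Klra, a split chosen after the values had been seen. Producers made up 21.3%, 16.6%, 7.79% and 9.12% of cells with a Klra UMI, and 2.08%, 13.5%, 0.938% and 1.07% of cells without one. Both Csf3r+/+ libraries lay above both Csf3r-/- libraries on either side of the split, with mean differences of -10.5 and -6.77 percentage points, at the smallest exact permutation p of 0.333. At 1500 UMIs, in a random draw separate from that behind the shares over all cells, the shares with a Klra UMI were 12.3%, 8.46%, 3.56% and 5.50%, and those without were 1.42%, 8.64%, 0.342% and 0.992%. In Csf3r+/+ library 2 alone the share of producers was about the same with and without a Klra UMI at that depth. Among cells without a UMI of Tmem176a or Tmem176b the shares were 21.3%, 14.9%, 7.98% and 9.75%, and among cells with 2 or more such UMIs 1.96%, 14.1%, 1.05% and 1.30%. At 1500 UMIs they were 11.6%, 8.27%, 3.13% and 6.63% without such a UMI and 0.737%, 6.93%, 0.310% and 0.733% with 2 or more, where Csf3r+/+ library 1 and Csf3r-/- library 2 were level.

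**Figure D5:**
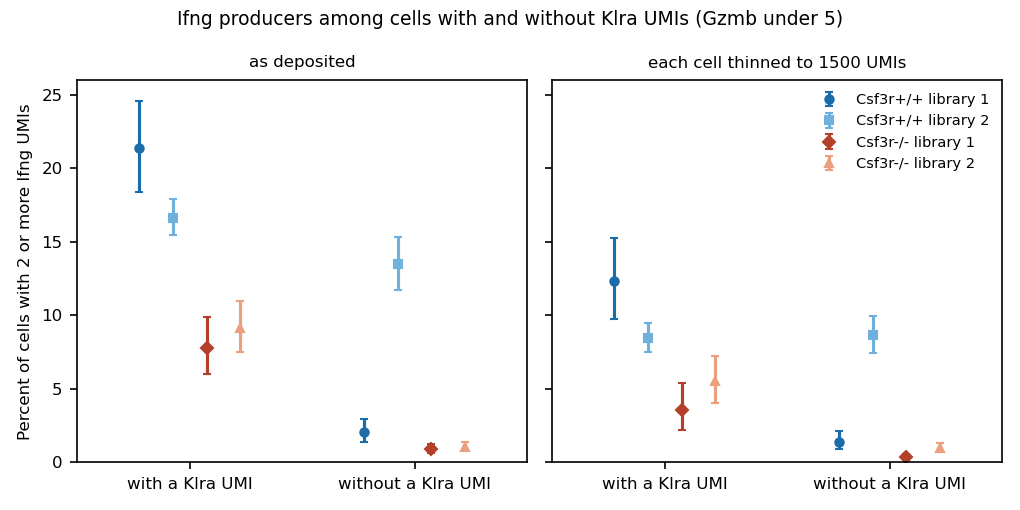
Percent of cells with fewer than 5 Gzmb UMIs that are Ifng producers (vertical axis), among cells with and without a UMI of any Klra gene, as deposited (left) and with each cell thinned to 1500 UMIs (right), 1 symbol per library with exact 95% intervals. As deposited, cells with a Klra UMI give 21.3% and 16.6% in Csf3r+/+ and 7.79% and 9.12% in Csf3r-/-, and Csf3r+/+ library 2 stands at 13.5% without a Klra UMI while the other libraries are at 2.08% or less.

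Between genotypes, type 3 genes were among those higher in Csf3r-/- producers. In edgeR's quasi-likelihood test on the 4 producer sums, 96 of 5509 genes (1.74%) were called, 35 higher in Csf3r-/- (0.635%) and 61 lower (1.11%). The filter on low counts lay at 16.6 CPM, and 25 of the 35 and 25 of the 61 were below it in at least 1 of the 4 sums. Type 3 genes gave 9 of the 35, out of 12 tested among the 17 on the list. Of these 12, 7 (Blk, Il17a, Ltb4r1, Serpinb1a and Zbtb16 among them) reached that level in both Csf3r-/- sums but not in both Csf3r+/+ sums, and so were tested only through the Csf3r-/- producers. Of the 5 that reached it in all 4 sums, Cxcr6, Tmem176a and Tmem176b were called higher. The type 1 program gave 0 of 14 (median -0.32) and NK cell receptors 0 of 17 (median -0.74). For Tbx21 the difference was -0.14 ± 0.29 and for Cxcr3 -0.47 ± 0.31 (edgeR adjusted p = 0.947 and 0.725).

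Csf3r-/- producers held Blk at 117 and 79.3 CPM against 6.06 and 1.90 CPM in Csf3r+/+ producers (4.95 ± 0.49, edgeR adjusted p = 0.0107), and Ltb4r1 at 195 and 131 against 24.3 and 5.69 CPM (3.77 ± 0.54, edgeR adjusted p = 0.0206). For neither did the genotypes overlap. Cxcr6 stood at 1347 and 1077 against 474 and 307 CPM (1.57 ± 0.26, edgeR adjusted p = 0.028), and Serpinb1a, Tmem176a, Tmem176b and Zbtb16 were higher by 3.4 ± 0.44, 1.97 ± 0.29, 1.80 ± 0.24 and 1.97 ± 0.36.

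Il17a was counted 369 times in Csf3r-/- producers, 55 and 314 UMIs by library, and 2 times in Csf3r+/+ producers, 0 and 2 UMIs (edgeR adjusted p = 0.0107). Per UMI sequenced this is a ratio of 806, with an exact counting interval of 222 to 6681 that ignores differences between libraries. Leaving out Csf3r-/- library 2 gave a ratio of 316, leaving out library 1 of that genotype gave 1107, and leaving out Csf3r+/+ library 1 gave 667. With Csf3r+/+ library 2 left out, Csf3r-/- producers were at least 92.8-fold higher, with the count of 0 set to 3 UMIs over the group. A UMI of Il17a in cells thinned to 1500 UMIs was found in 0% and 0% of Csf3r+/+ producers (0 of 179 and 0 of 789 cells, which allows up to 1.68% and 0.38%) and in 8.51% and 23.2% of Csf3r-/- producers. The same shares were 11.3% and 41.5% in Csf3r-/- Ifng-negative cells and 2.94% and 11.1% in macrophage or B cell barcodes of those libraries, so that producers stood between the background and the Ifng-negative cells. Without thinning, Il17a was found in 16.0% and 32.9% of the same Csf3r-/- producers, those with 1500 UMIs or more, and in 2.94% and 26.5% of those barcodes.

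The same genes leaned the same way in Ifng-negative cells. All 35 genes called higher in Csf3r-/- producers were also above 0 there, and all 61 called lower were below 0, although the libraries are the same and the comparisons are not independent. No gene of 11247 passed in Ifng-negative cells in edgeR (0.0%), where 1332 had an unadjusted p under 0.05 and DESeq2 called 403. Csf3r+/+ library 1 and library 2 differed widely there: for the 16 type 3 genes the median absolute log2 difference between them was 2.14 in Ifng-negative cells and 0.65 in producers, with 12 and 5 genes over 2-fold. In Csf3r-/- it was 0.16 and 0.52.

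Pseudogenes and symbols of ribosomal proteins were counted among the genes called between genotypes in producers. Of the 61 lower in Csf3r-/-, 21 are pseudogenes and 13 carry symbols of ribosomal proteins, for which reads may be shared with near-identical copies. Of the 35 higher, 0 and 0 were of these kinds. Their share among all 5509 genes tested is not given here, and enrichment was not tested. Socs1, which restrains signaling by interferon gamma and other cytokines (chr16:10782240-10785536), stood at 48.5 and 85.7 CPM in Csf3r+/+ producers and at 3.01 and 5.53 CPM in Csf3r-/- producers (-3.99 ± 0.59, 15.8-fold lower, edgeR adjusted p = 0.0224). It was below the filter level in both Csf3r-/- sums, as were Scand1 and Sdhaf1, so these were tested only through the Csf3r+/+ producers. Ifng-negative cells held 81.7 and 66.2 CPM in Csf3r+/+ and 9.12 and 5.61 CPM in Csf3r-/-, without overlap of the genotypes. Socs1 was not called between producers and Ifng-negative cells (edgeR adjusted p = 0.999). Scand1, at 156 and 195 against 12.0 and 9.22 CPM (-4.15 ± 0.35), and Sdhaf1, a mitochondrial assembly factor at 68.2 and 108 against 9.02 and 12.9 CPM, were likewise lower in both Csf3r-/- libraries. All libraries of a genotype were aggregated together, so genotype and any handling of the pooled pair cannot be told apart.

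Without Csf3r-/- library 1, 39 genes were called between genotypes in producers and 4 of 12 type 3 genes, and without Csf3r+/+ library 1 or 2 the totals were 405 and 345 with 12 of 12 type 3 genes. Only 1 gene of 9847 (0.0102%) was called for a difference between classes that itself differed by genotype, and 442 had an unadjusted p under 0.05. The gene called was Ccl1, a chemokine ligand of CCR8, at 0, 6.64, 0 and 540 CPM in producers, with 292 of its 293 UMIs in Csf3r-/- library 2 in 2 cells. This test finds little: in simulated counts, whose spread was set beforehand, edgeR recovered 25.8% of genes changed by a log2 of 2. The test between classes recovered 92.0%. Few calls thus do not show that the classes differed alike in both genotypes. Of 19 NK receptor genes none was called, but 17 were above 0 (median 1.08), as were 10 of 10 proliferation genes (median 1.13).

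Markers of other cells were checked in the producers. Between classes, 0 of 9 tested macrophage markers, 0 of 2 B cell markers and 0 of 1 coreceptor gene were called, and no fibroblast marker was abundant enough to test. All 9 macrophage markers tested were above 0 all the same (median 0.99), and between genotypes in producers 0 of 7 were called with all 7 above 0 (median 3.6). S100a8, S100a9 and Retnlg, the defining transcripts of neutrophils, were at 0 in producers of all 4 libraries, and Mmp9, which stood at 9.10, 8.54, 12.0 and 16.6 CPM and was called higher (2.53 ± 0.43, edgeR adjusted p = 0.00865), was the only neutrophil marker tested. In Ifng-negative cells it stood at 1.66, 2.53, 0.746 and 2.19 CPM, below the filter level in 2 of the libraries. The 6 fibroblast and sarcoma markers summed to at most 1.52 CPM, and Cd4, Cd8a and Cd8b1 together to 6.06, 8.54, 27.1 and 22.1 CPM in producers against 21.0, 13.6, 34.6 and 33.2 CPM in Ifng-negative cells. The 4 B cell markers in the matrices, led by Cd79b, summed to 7.58, 15.8, 54.1 and 11.1 CPM in producers, with Cd79a and Ms4a1 at 0 in Csf3r+/+ library 1 and Csf3r-/- library 2.

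Macrophage transcripts were uneven. The 10 macrophage markers summed to 30.3, 568, 379 and 8218 CPM in producers against 115, 617, 479 and 1924 CPM in Ifng-negative cells, led by Apoe at 3752 CPM in producers of Csf3r-/- library 2, though the sort took CD11b-negative cells. In that library 4 of 159 producers held 3393 of the 3470 UMIs of 8 of these markers (all but H2-Aa and Cd74), and in Csf3r+/+ library 2 5 producers held 1050 of 1195. Csf1r, Adgre1 and Cd68 were at 0 in producers of Csf3r+/+ library 1 and Csf3r-/- library 1. Without cells that held 2 or more macrophage or B cell UMIs, which were 4, 51, 6 and 29 of the producers, 270 genes were called between classes and 112 between genotypes, with 6 of 14 type 1 genes, 14 of 20 NK receptor genes and 12 of 16 type 3 genes called in the class comparison.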

How the data were processed

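Single-cell libraries (10x 3′ v2) of 2 Csf3r+/+ and 2 Csf3r-/- tumors were used. According to the methods, the authors aligned reads to mm10 and counted UMIs with Cell Ranger, aggregating the pair of libraries of each genotype. The submitters' processing notes list R 3.4.4 and Seurat 2.3.4. The deposited values are raw UMI counts per gene and barcode, for 27998 genes. The methods do not state whether aggregation equalized depth. The files hold 15137 Csf3r+/+ and 17388 Csf3r-/- barcodes, of which 9310 and 12062 have a Cd3e UMI, fewer than the methods give for this step.

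Libraries were separated by the number after the barcode, an unnumbered replicate. The producers, the lists and the tests were chosen with earlier results of these data known. Counts were summed per library and class (per class and library, 332663 to 13720715 UMIs) and tested with edgeR 4.0.16 (TMM, filterByExpr, quasi-likelihood F test, Benjamini-Hochberg, threshold 0.05) under R 4.3.3, with the library as block between classes and no block between genotypes. DESeq2 1.42.0 was an alternative, and scipy 1.17.1 gave exact tests and Clopper-Pearson intervals. The scripts were tested on simulated data. Named genes were members of the 23 lists and, per comparison, the 10 largest changes in each direction among called genes with at least 20 CPM in the higher class and the same sign in every library (or no overlap between genotypes). Some members enter the counts over their lists but are not reported here singly. Positions are from GENCODE vM21 (GRCm38). Alternatives are listed in the closing section.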

Additional observations from a re-analysis of the deposited data

Results flagged for a closer look

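Ccl1 was singled out because its difference between producers and Ifng-negative cells differed between genotypes, by 8.07 ± 0.71 on the log2 scale (edgeR adjusted p = 0.0129). It stood at 0, 6.64, 0 and 540 CPM in producers and at 18.2, 5.85, 0 and 3.21 CPM in Ifng-negative cells, with 292 of 293 UMIs of Csf3r-/- library 2 in 2 producers, and no gene was called without that library.

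Barcodes without a Cd3e UMI lie outside the comparisons, and among those with fewer than 5 Gzmb UMIs 9.58% (52 of 543) and 15.5% (617 of 3970) held 2 or more Ifng UMIs in Csf3r+/+ libraries 1 and 2. In Csf3r-/- libraries 1 and 2 these were 1.66% (31 of 1866) and 1.97% (62 of 3146), with a median of 2478, 2541, 1815 and 1762 UMIs per barcode in the 4 libraries. Both Csf3r+/+ libraries were above both Csf3r-/- libraries, and with no Cd3e UMI required the difference in the share of producers was -9.97 percentage points.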

How the results depend on the processing

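Between classes, 268 genes became 169 with Gzmb at 0 in both classes, 125 with Ifng-negative cells matched on UMIs (5405 genes tested), 612 without a filter on low counts and 0 without the library block, and ranged from 59 to 797 with a library left out. Between genotypes in producers, 96 became 24 at Ifng of 5 or more (2277 genes tested), 379 without the filter and 55 without the cells of highest UMIs, with 39 to 405 when a library was left out. In Ifng-negative cells, 0 became 403 in DESeq2 and 108 without the filter, with 0 to 557 when a library was left out. For the difference that differed by genotype, 1 became 0 with Gzmb at 0, 9 at Ifng of 5 or more, 3 with DESeq2's size factors in edgeR, 87 without the filter and 5 without cells with macrophage or B cell UMIs, with 0 to 213 when a library was left out. The cause of these changes was not tested beyond the number of genes tested. The difference in share was -4.95 percentage points after thinning, -15.0 at Ifng of 1 or more, -3.45 at 5 or more and -13.5 to -5.98 with a library left out, and was negative in all. Of the genes named, Tbx21 between genotypes changed sign, from -0.14 to 0.13 without Csf3r+/+ library 2, with -0.31 to 0.13 over the libraries left out and -0.65 to 0.13 over all settings.

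With the barcode number as a replicate block, 430 genes were called between genotypes in producers, with 12 of 12 type 3 genes higher and 9 of 17 NK receptor genes lower, 0 in Ifng-negative cells, and the difference in share was -9.75. Deviations of same-numbered libraries from their genotype means correlated at 0.414 over 2456 genes in producers and 0.381 over 2589 in Ifng-negative cells. With only 2 pairs and no label for the number, what same-numbered libraries share besides the number cannot be named.

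Depth limits the producers of the Csf3r-/- libraries most, with 99 and 159 cells, and single UMIs decide low genes there. When a library is left out, the lone library of a genotype is assumed to vary like the others. The alternatives without Cd3e, with no limit on Gzmb, over all cells past the filters and with the upper limit on genes of the methods left the share's difference within its spread. The splits by Klra and Tmem176 were added after seeing the data.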
